A study of Danio rerio with 6 samples.

Results

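Skin ionocytes are the cells through which a freshwater fish larva takes up calcium, sodium and chloride and excretes acid and ammonia before its gills work. In zebrafish they arise among epidermal cells under the control of forkhead factors of the Foxi3 group. They divide into types with different transporters: calcium-absorbing NaR cells, proton-secreting HR cells, and NCC cells that carry a sodium chloride cotransporter. The genes described here are 10 named genes of these cells: the regulators foxi3a, foxi3b and gcm2, the epithelial calcium channel gene trpv6, the cotransporter gene slc12a10.2, and the acid and ammonium excretion genes slc4a1b, ca2, ca15a, rhcgb and slc9a3.2. They were found by symbol, with capital letters ignored, among the 32520 genes of the count table. For 8 names the symbol matched 1 gene. The symbol table holds slc4a1b and rhcgb only without their paralog letter, as SLC4A1 (2 genes) and RHCG (3 genes), so 13 genes were described, and which SLC4A1 gene is slc4a1b and which RHCG gene is rhcgb was not determined.

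The libraries came from zebrafish of the sp7-eGFP line, in which a transgene under sp7 control makes green fluorescent protein in cells of the osteoblast lineage. One arm was kept in 200 nM bisphenol A (BPA), a plastics chemical with estrogenic activity, from 24 hours post fertilization, and the other arm was the control. BPA stocks were made in dimethyl sulfoxide, and whether control embryos received the solvent is not given in the sources used here. Fluorescent cells were sorted at 4 days post fertilization from 400 embryos per arm and were labelled as embryonic osteoblasts, and 3 libraries were sequenced from exposed embryos and 3 from control embryos. The labels are silent on whether the replicate libraries of a group were made from different embryos. The p-values therefore measure only the spread between these libraries, which may be technical.

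Exposed libraries held between 30748435 and 42863847 counts and control libraries between 32173615 and 43403568. Levels below are CPM, a gene's counts relative to the scaled total of its library, and each mean is given with its standard deviation (SD) over n = 3 libraries. Markers of bone-forming cells were present in both groups: the osteoblast factor gene SP7 was at 8.49 ± 0.355 CPM in exposed and 6.87 ± 1.55 CPM in control libraries, and the bone factor gene runx2b was at 1.59 ± 0.275 and 2.57 ± 0.708 CPM, while bglap, the osteocalcin gene, was at 0 counts throughout. Epidermal keratins were far from absent in the sorted cells, with krt4 at 6029 ± 76.8 CPM in exposed and 3359 ± 41.3 CPM in control libraries.

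Most ionocyte genes were higher in the BPA-exposed libraries, and the calcium channel gene was not. Of the 13 genes, all of which passed the filter on low counts, 10 rose with BPA exposure, 1 fell and 2 did not pass the test (edgeR's quasi-likelihood test, Benjamini-Hochberg adjusted p under 0.05). Of the 8 genes found by their full symbol, 6 rose and 2 did not pass. The other 5, the SLC4A1 and RHCG genes, stand for 2 names, so some of them are not the listed genes. Among all 21194 genes tested 20.1% rose and 18.7% fell, 38.8% in all. The genes that rose did so between 1.35-fold (ca15a) and 4.01-fold (an RHCG gene). The median log2 fold change of the 13 genes was 0.84, against -0.003 over all genes tested. Genes of higher counts were called more often: of the 10 ionocyte genes with a mean of at least 10 CPM, 8 rose, 1 fell and 1 did not pass, while 27.2% of all genes at that level rose and 28.5% fell, 55.7% in all. In 11 of the 13 the exposed and control values did not overlap, as in 48.4% of all genes tested. In sorted bulk cells, more cells of a type and more RNA per cell cannot be told apart.

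**Figure D1:**
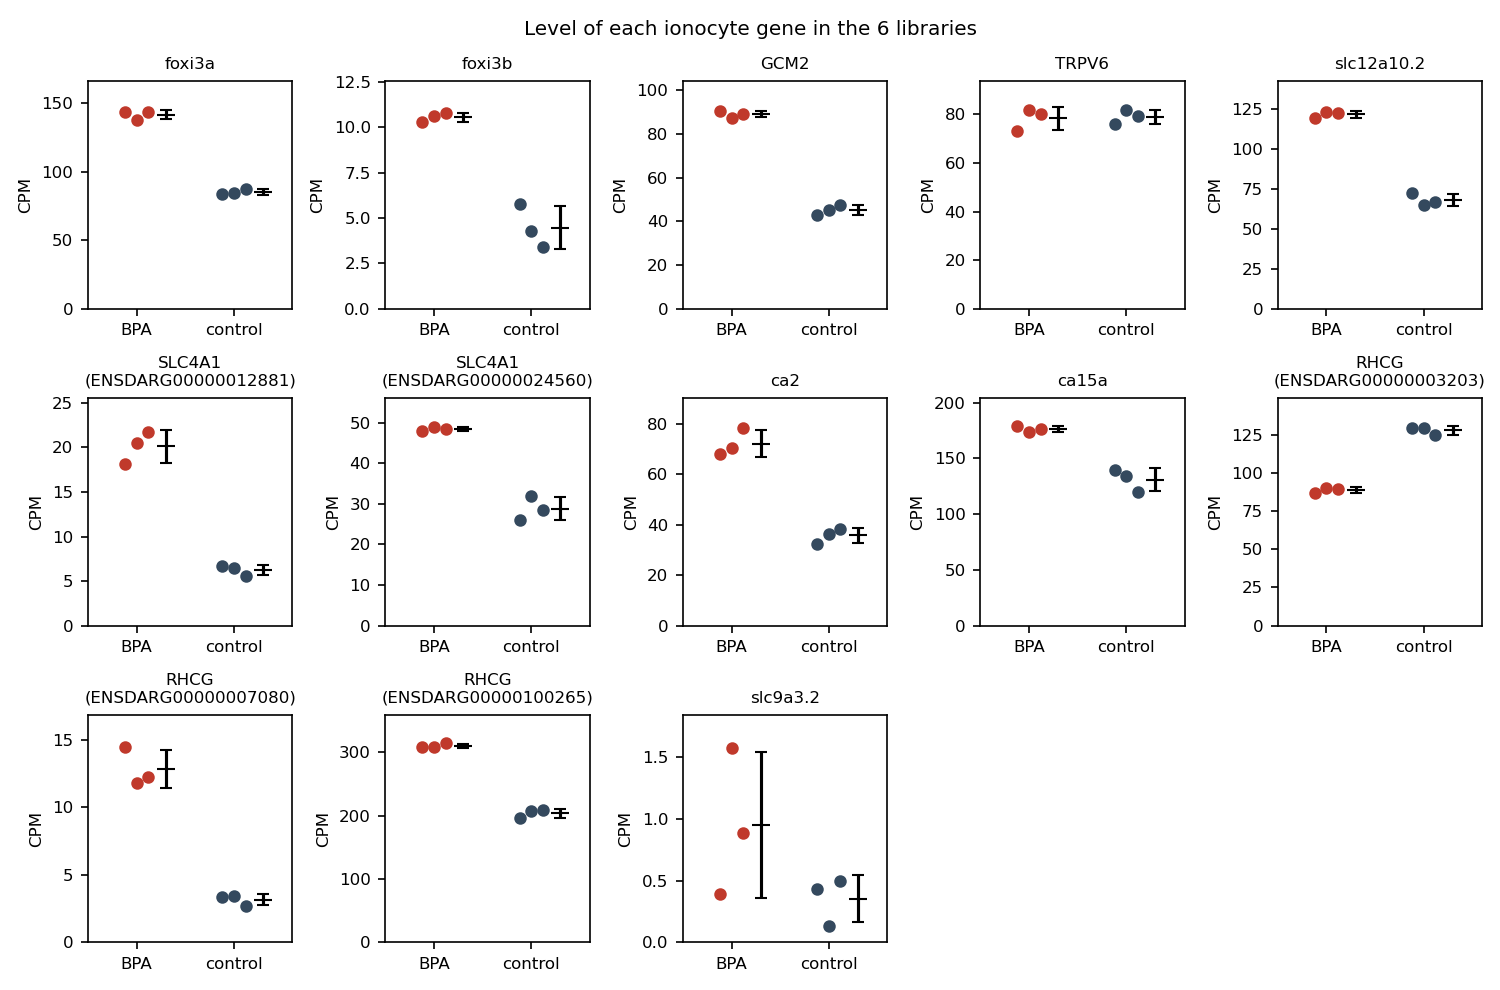
Level of each ionocyte gene in CPM (vertical axes, each starting at 0) in the 3 BPA-exposed and 3 control libraries; points are libraries, and the black mark with its bar is the mean ± SD. TRPV6 and slc9a3.2 overlap between the groups, RHCG (ENSDARG00000003203) is lower in every exposed library, and the other 10 genes are higher in every exposed library.

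All 3 regulators rose. The gene foxi3a (ENSDARG00000055926), which acts with foxi3b in ionocyte differentiation in zebrafish skin, had 143, 138 and 144 CPM in the exposed libraries, against 83.4, 84.3 and 87.5 CPM in the control libraries. The lowest exposed library lay well above the highest control library, and the log2 fold change was 0.73 ± 0.028 (standard error, SE; adjusted p = 7.04e-14). Its paralog foxi3b (ENSDARG00000009550) had 316, 446 and 460 reads in the exposed and 214, 188 and 110 in the control libraries. In CPM these were 10.26, 10.6 and 10.8 in the exposed and 5.75, 4.27 and 3.41 in the control libraries. The control libraries of foxi3b differed more among themselves (coefficient of variation 26.4%) than the exposed ones (2.44%), and the groups did not overlap (log2 fold change 1.23 ± 0.22, adjusted p = 1.67e-06).

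The third regulator, GCM2 (ENSDARG00000045413), encodes the glial cells missing factor that HR cells need in zebrafish and that also acts in the parathyroid of mammals. It had 90.4, 87.5 and 89.2 CPM in exposed libraries and 42.9, 45.4 and 47.3 CPM in control libraries. That is 1.97-fold with no overlap (log2 fold change 0.98 ± 0.043, adjusted p = 1.38e-14). Together the 3 regulators summed to 241 ± 4.53 CPM in exposed and 135 ± 3.14 CPM in control libraries, and the sums of the groups did not overlap (exact two-sided permutation p = 0.1, which is the lowest value that groups of 3 can reach).

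TRPV6 (ENSDARG00000014496) encodes the apical calcium channel through which NaR cells take up calcium. It had 73.1, 81.9 and 80.0 CPM in exposed libraries, against 76.1, 81.9 and 79.1 CPM in control libraries. The groups overlapped almost fully, and library 1 was the lowest in both. The means were 78.3 ± 4.66 and 79.1 ± 2.93 CPM, with a log2 fold change of -0.01 ± 0.059 (adjusted p = 0.891). Leaving out each library in turn moved this value between -0.04 and 0.03. A p-value that misses the threshold does not show equal levels.

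The NCC cell gene slc12a10.2 (ENSDARG00000071173), which encodes the sodium chloride cotransporter, had 119, 123 and 123 CPM in exposed and 72.3, 64.8 and 66.6 CPM in control libraries. The groups stood clearly apart, at 1.79-fold (log2 fold change 0.84 ± 0.050, adjusted p = 4.15e-14). In the RefSeq annotation of another zebrafish assembly (GRCz12tu) the related gene slc12a10.3 is its direct neighbour, and reads shared between these relatives cannot be judged from the table. Those relatives were near background: slc12a10.3 was at 0.390 ± 0.0623 CPM in exposed and 0.954 ± 0.512 CPM in control libraries (adjusted p = 0.115, edgeR), and slc12a10.1 was at 0.0840 and 0.0620 CPM and was too low to test.

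**Figure D2:**
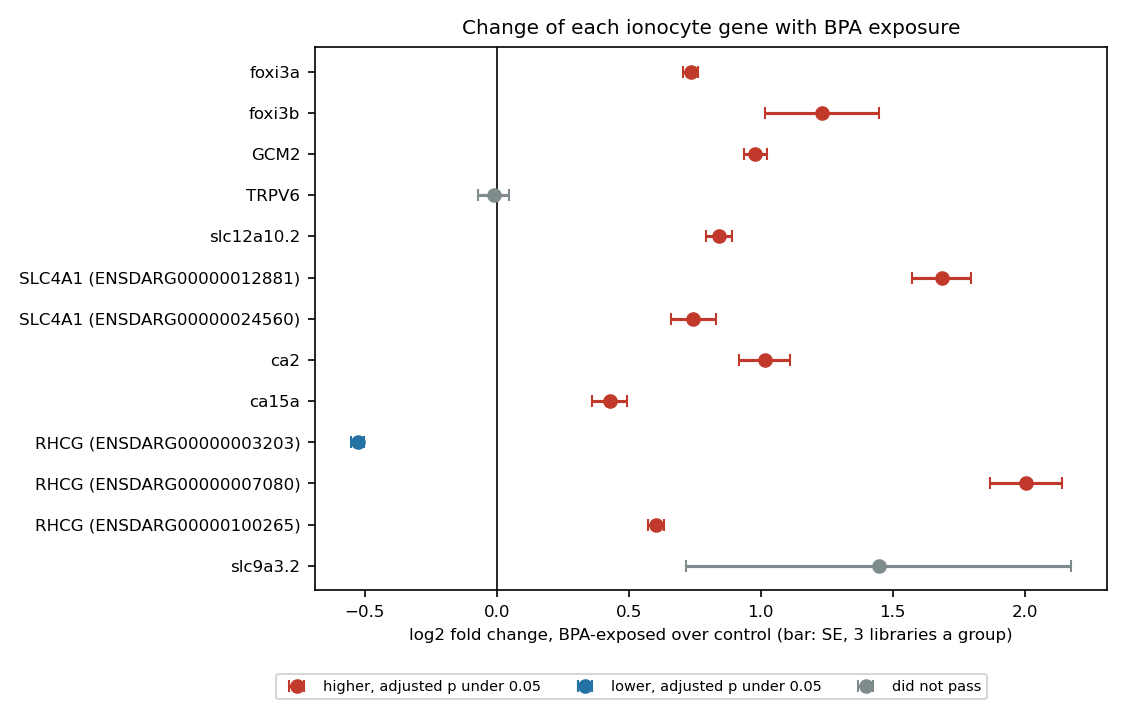
Log2 fold change of each ionocyte gene, BPA-exposed over control (horizontal axis), with the SE over 3 libraries a group as bars and colour for the call at an adjusted p of 0.05. The values run from -0.53 for RHCG (ENSDARG00000003203) to 2.00 for RHCG (ENSDARG00000007080), with TRPV6 at -0.01 and a wide bar for slc9a3.2.

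Genes of acid and ammonium excretion went up in 6 cases, down in 1, and 1 did not pass, against 20.1% higher and 18.7% lower over all genes tested. Of these 8 genes, 5 are the SLC4A1 and RHCG genes, with the fall among them. Of the others, ca2 and ca15a rose and slc9a3.2 did not pass. Carbonic anhydrases hydrate carbon dioxide and so supply protons to HR cells. The cytosolic carbonic anhydrase gene ca2 (ENSDARG00000014488) had 67.9, 70.4 and 78.2 CPM in exposed and 32.3, 36.5 and 38.4 CPM in control libraries. Its groups did not overlap and differed 2.02-fold (log2 fold change 1.01 ± 0.096, adjusted p = 5.98e-13). The membrane-bound ca15a (ENSDARG00000015654) changed least among the genes that rose, with 179, 173 and 177 CPM in exposed and 139, 134 and 119.5 CPM in control libraries (log2 fold change 0.43 ± 0.067, adjusted p = 1.64e-08). Its neighbour in RefSeq, ca15c, was low at 1.95 ± 0.347 and 0.832 ± 0.406 CPM, and whether reads were shared between these genes was not tested.

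SLC4A1 genes encode anion exchangers that move bicarbonate, slc4a1b in HR cells and slc4a1a in red blood cells. SLC4A1 (ENSDARG00000012881) had 18.1, 20.5 and 21.8 CPM in exposed and 6.66, 6.50 and 5.58 CPM in control libraries, a 3.22-fold rise with no overlap (log2 fold change 1.69 ± 0.11, adjusted p = 6.25e-12). SLC4A1 (ENSDARG00000024560) had 47.9, 48.9 and 48.4 CPM in exposed and 26.1, 31.9 and 28.5 CPM in control libraries, again with no overlap (log2 fold change 0.74 ± 0.085, adjusted p = 3.3e-09). The 2 genes did not change by the same amount: the log2 ratio of the first to the second averaged -1.27 ± 0.125 in exposed and -2.21 ± 0.208 in control libraries (SD, n = 3 each), a difference of 0.94 ± 0.14 SE with no overlap (exact permutation p = 0.1). Red cell markers were mostly higher in the exposed libraries as well. Without the SLC4A1 genes the erythroid list summed to 1053 ± 7.63 CPM in exposed and 752 ± 10.14 CPM in control libraries. Of its 7 tested genes 5 rose and none fell, against 20.1% and 18.7% of all genes tested. Its heme synthesis gene alas2 was at 13.9 ± 1.26 and 7.22 ± 1.59 CPM, while hbae1.1 and gata1a did not pass. Of the genes that rose, RHAG (434 ± 10.9 and 331 ± 4.08 CPM) and cahz are also in the ionocyte lists below. The part of red cells in the SLC4A1 result was not tested.

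RHCG genes encode ammonia channels, and rhcgb serves ammonia excretion by HR cells in zebrafish. These 3 genes moved in opposite directions. RHCG (ENSDARG00000007080) had 14.4, 11.8 and 12.2 CPM in exposed and 3.33, 3.45 and 2.73 CPM in control libraries, the largest change among the 13 genes (log2 fold change 2.00 ± 0.14, adjusted p = 4.83e-11). RHCG (ENSDARG00000100265) had 308, 308 and 314 CPM in exposed and 196, 207 and 209 CPM in control libraries (log2 fold change 0.60 ± 0.030, adjusted p = 4.78e-14). In contrast, RHCG (ENSDARG00000003203) had 86.7, 90.1 and 89.7 CPM in exposed and 129.8, 129 and 125 CPM in control libraries, and was lower in every exposed library (log2 fold change -0.53 ± 0.025, adjusted p = 1.43e-10). None of the 3 overlapped between the groups. Relative to the gene that fell, counts of ENSDARG00000007080 were 5.83-fold and counts of ENSDARG00000100265 were 2.19-fold higher in exposed than in control libraries, ratios that do not depend on scaling (exact permutation p = 0.1 for each, and 0.1 adjusted over the 2 ratios).

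The last gene, slc9a3.2 (ENSDARG00000036722), encodes a sodium-proton exchanger of HR cells and was barely detected. It had 12, 66 and 38 reads in exposed and 16, 6 and 16 in control libraries, or 0.390, 1.57 and 0.889 CPM against 0.430, 0.136 and 0.496 CPM. Exposed library 1 lay within the control range, and the difference did not pass (log2 fold change 1.45 ± 0.73, adjusted p = 0.0923). Without exposed library 1 the log2 fold change was 1.81, and without exposed library 2 it was 0.87, so its size cannot be read at this depth. RefSeq places the related slc9a3.1 next to it.

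The 13 genes differed in how much they changed. Within a library, the ratio of counts of 2 genes does not depend on scaling, so it shows directly whether they changed alike. Counts of TRPV6 relative to foxi3a had a log2 ratio of -0.97, -0.75 and -0.84 in exposed and -0.13, -0.04 and -0.14 in control libraries, a drop to 0.595 of the control ratio. Relative to GCM2 the ratio fell to 0.502, relative to slc12a10.2 to 0.552 and relative to ca2 to 0.490 of its control value. Over the 12 other genes, the TRPV6 ratio was lower in every exposed library for 10, higher for 1, RHCG (ENSDARG00000003203), and overlapping for slc9a3.2. The log2 fold change of TRPV6 itself was -0.01, so its ratios mostly mirror the changes of the other genes given above. They are therefore not a further result, and TRPV6 ratios to all genes were not computed. Each of the 11 ratios without overlap had an exact permutation p of 0.1, or 0.109 adjusted over the 12. These ratios are not levels, since the counts of different genes also depend on gene length.

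**Figure D3:**
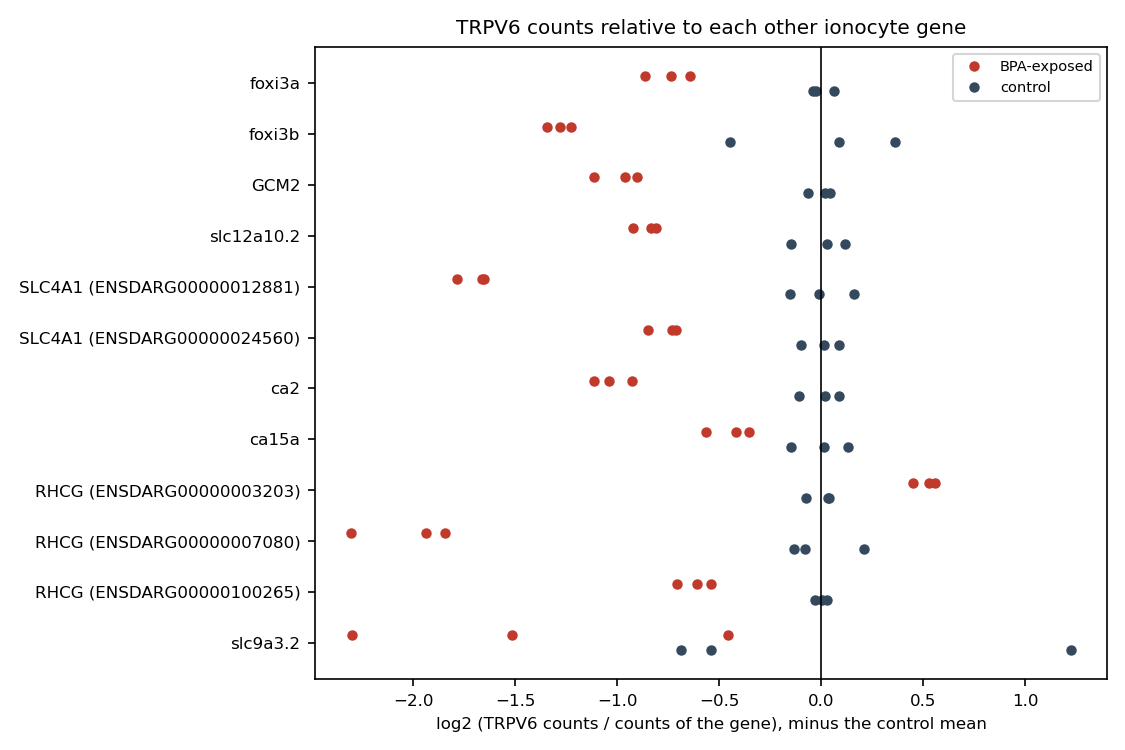
Log2 ratio of TRPV6 counts to the counts of each other ionocyte gene in each library, minus the mean of the control libraries (horizontal axis), for BPA-exposed and control libraries. Exposed points lie left of all control points for 10 of 12 genes, right of them for RHCG (ENSDARG00000003203), and among them for slc9a3.2.

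Among the genes that rose, the size of the rise differed as well. Set against foxi3a, counts of 5 of 11 other genes (without TRPV6) were relatively higher in every exposed library, among them GCM2 (1.19-fold), ca2 (1.21-fold) and foxi3b (1.45-fold). Those of 3 were relatively lower, among them ca15a (0.811-fold). The ratios of slc12a10.2 (1.08-fold) and SLC4A1 (ENSDARG00000024560; 1.01-fold) to foxi3a overlapped between the groups, as did that of slc9a3.2. Ratios of all other genes to foxi3a were not computed, so these counts have no background share beside them.

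Most, but not all, epidermal markers in the list were higher in the exposed libraries as well. Ionocytes lie among keratinocytes in the skin, and the 22 keratinocyte markers summed to 30199.5 ± 371 CPM in exposed and 18131.5 ± 307 CPM in control libraries, 1.67-fold, with 16 genes up, 1 down and 5 not past the test. Among all genes tested 20.1% rose and 18.7% fell. All 22 markers had a mean of at least 10 CPM, and among all genes at that level 27.2% rose and 28.5% fell. The keratin gene krt5 was at 3582 ± 94.4 CPM in exposed and 1480 ± 8.66 CPM in control libraries, krt91 at 6615 ± 58.2 and 2272 ± 30.0 CPM, and krt17 at 1637 ± 29.6 and 790.3 ± 31.2 CPM. Other markers did not rise: krt8 was at 717 ± 4.87 and 716 ± 15.2 CPM, and epcam at 487 ± 0.877 and 498 ± 16.2 CPM. The marker called lower was cldni, at 77.5 ± 1.35 CPM in exposed and 89.5 ± 5.12 CPM in control libraries. Most of the keratinocyte sum came from krt4, krt91, cyt1 and krt5, which rose 1.80-fold, 2.91-fold, 1.17-fold and 2.42-fold. A ratio to the sum therefore does not hold for each marker. Counts of foxi3a relative to the keratinocyte sum had overlapping values in the groups, at 0.999-fold, and so did those of SLC4A1 (ENSDARG00000024560) at 1.01-fold. Measured this way, 6 of the 13 genes were relatively higher in every exposed library, with GCM2 at 1.18-fold and slc12a10.2 at 1.08-fold. Relatively lower in every exposed library were 4 genes: TRPV6 (0.594-fold), ca15a (0.810-fold), RHCG (ENSDARG00000003203; 0.417-fold) and RHCG (ENSDARG00000100265; 0.913-fold). Each ratio without overlap had an exact permutation p of 0.1 (0.13 adjusted over the 13). The same ratios were not computed for all genes, so these counts have no background share beside them. The sum itself rose 1.67-fold, so a gene whose CPM changed little, such as TRPV6, falls relative to it. Whether the share of skin cells in the sort had a part in the higher levels was not tested.

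**Figure D4:**
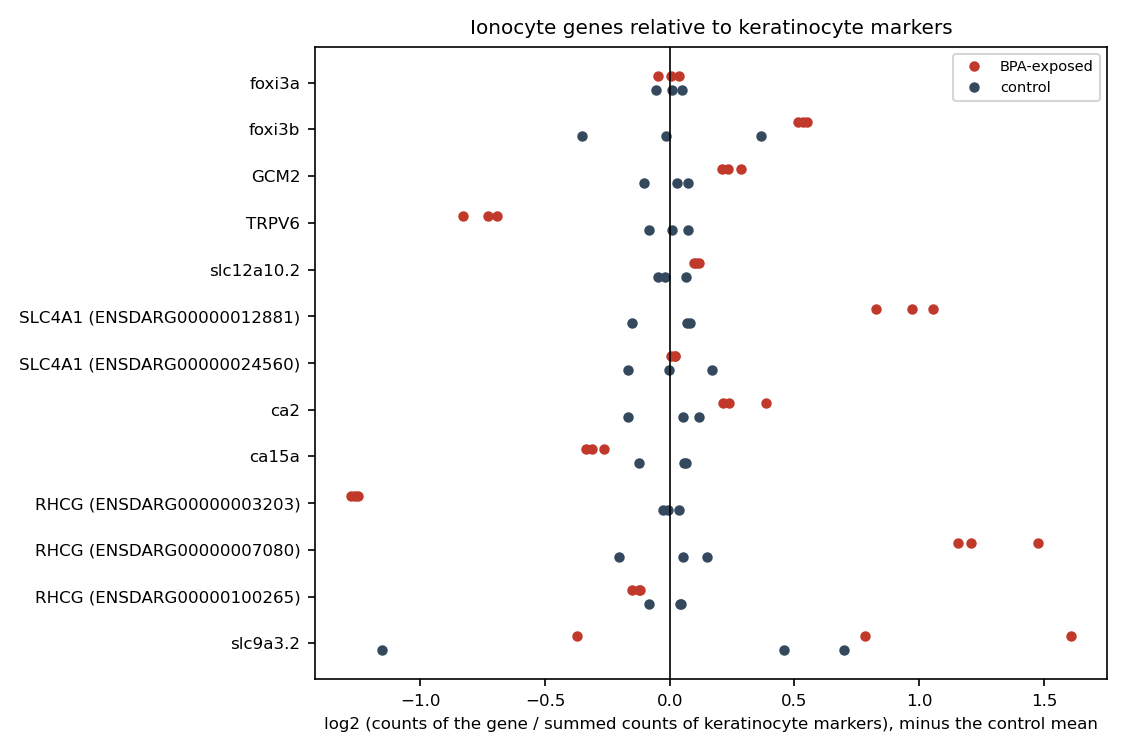
Log2 ratio of each gene's counts to the summed counts of 22 keratinocyte markers in each library, minus the mean of the control libraries (horizontal axis), for BPA-exposed and control libraries. Exposed and control points overlap for foxi3a and SLC4A1 (ENSDARG00000024560), while TRPV6 and RHCG (ENSDARG00000003203) lie to the left in every exposed library. The sum is mostly a few keratin genes, and the markers did not all change alike.

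Markers of other organs were counted in the same way, against 20.1% higher and 18.7% lower over all genes tested. Kidney tubule markers, which mark cells that share several of these transporters, summed to 284 ± 1.71 CPM in exposed and 319 ± 2.78 CPM in control libraries. Most of these sums was a single gene, SLC20A1 (ENSDARG00000010641), at 193 ± 0.761 and 221 ± 1.83 CPM. Among the 17 tested kidney tubule genes, 2 were called higher and 4 lower, shares near those over all genes, and 11 were not called. The higher count was 1 without exposed library 2, exposed library 3 or control library 2, with the replicate block, or with the filter of at least 1 CPM. The tubule cadherin gene CDH17 was at 5.24 ± 0.206 and 7.48 ± 0.848 CPM. Intestinal markers, of an organ that also absorbs calcium, summed to 215 ± 6.42 CPM in exposed and 427 ± 21.1 CPM in control libraries, with 2 of 13 up, 8 down and 3 not past (0 up without exposed library 3). Its fatty acid carrier gene FABP2 was at 27.4 ± 1.69 and 53.8 ± 5.71 CPM. Sums over neuromast and hair cell markers overlapped, at 400.4 ± 9.76 and 389 ± 12.7 CPM. Most of these sums was cldnb, which is also in the keratinocyte list, at 243 ± 4.21 and 251 ± 13.0 CPM. Of the 9 tested genes of the neuromast list, 4 were called higher and 1 lower (2 higher without exposed library 3). The hair cell factor gene ATOH1 had 0 counts in every library, which at 3 counts allows up to 0.0974 CPM in the shallowest. The osteoblast list summed to 11907 ± 70.7 CPM in exposed and 10107 ± 140.2 CPM in control libraries, with 4 of 18 up, a share near that over all genes, 5 down and 9 not past. The lower count was 3 without any 1 of the exposed libraries and 2 without control library 2. Most of the osteoblast sum came from matrix genes. COL1A1 (ENSDARG00000035809; 4037 and 2715 CPM), COL1A2 (2826 and 2350 CPM) and SPARC (1962 and 1592 CPM) rose, and col1a1a (2718 and 3048 CPM) fell. The osteoblast factor genes SP7 and runx2b did not pass, so the sum does not stand for the whole list.

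Further genes of the proton-secreting HR cells mostly rose with the acid excretion genes. Calls were 10 higher and 3 lower among 17 tested, against 20.1% and 18.7% over all genes tested. The other 4 were not called, and the median log2 fold change of the list was 0.40. Of 6 proton pump subunit genes 5 rose and 1 fell. The catalytic subunit gene ATP6V1A (ENSDARG00000034534) was at 263 ± 2.90 CPM in exposed and 145 ± 5.20 CPM in control libraries (log2 fold change 0.86 ± 0.031), atp6v1e1b at 199.7 ± 7.71 and 128 ± 3.85 CPM, and ATP6V0A1 (ENSDARG00000020847) at 219 ± 4.38 and 153 ± 0.482 CPM. The one that fell was ATP6V0A1 (ENSDARG00000015174), at 11.6 ± 1.06 CPM in exposed and 15.3 ± 0.983 CPM in control libraries (log2 fold change -0.40 ± 0.092, adjusted p = 0.00954, edgeR). The proton pump also acidifies organelles in every cell. Of 2 genes named SLC4A4, sodium bicarbonate cotransporters, ENSDARG00000044808 rose to 40.0 ± 2.61 CPM in exposed against 18.8 ± 2.97 CPM in control libraries, and ENSDARG00000013730 fell to 30.0 ± 1.82 against 53.9 ± 5.29 CPM. Both SLC4A4 genes are also in the list of NCC cells and other ionocyte types, so they do not stand for HR cells alone. The carbonic anhydrase gene ca4a also fell, to 7.54 ± 1.43 against 15.3 ± 1.50 CPM (adjusted p = 1.15e-06, edgeR), while its relatives ca15c and cahz were called higher.

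Genes of NCC cells and the other ionocyte types were called higher more often than lower. Calls were 13 higher and 3 lower among the 22 genes tested, against 20.1% and 18.7% over all genes tested. The other 6 were not called (median log2 fold change of the list 0.52). The NCC cell chloride channel gene clcn2c was at 107 ± 4.02 CPM in exposed and 63.1 ± 2.34 CPM in control libraries. ATP1B1 (ENSDARG00000076833), a sodium pump beta subunit gene, was at 429 ± 8.67 and 259 ± 13.4 CPM. The other ATP1B1 gene (ENSDARG00000013144) fell, to 169 ± 1.85 against 188 ± 6.39 CPM (adjusted p = 0.00385, edgeR). Of 7 sodium pump subunit genes in all the lists, 3 rose, 2 fell and 2 did not pass. Named after their values were seen, 6 of the 7 KCNJ1 genes, potassium channels that include those of potassium-secreting ionocytes, rose by between 0.67 and 1.103 on the log2 scale, though these are close relatives whose reads may be shared. Thus 6 of the 13 higher calls of this list came from the KCNJ1 family. The SLC4A4 genes above, which moved in opposite directions, are counted here too.

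Genes of the calcium-absorbing NaR cells gave no common direction (median log2 fold change -0.06). Among 14 tested, 2 were called higher and 2 lower, beside 20.1% and 18.7% over all genes tested, and 10 were not called. Without exposed library 3 or control library 2, 1 was lower. Here IGFBP5 (ENSDARG00000025348), an insulin-like growth factor binding protein gene whose zebrafish paralog igfbp5a acts in NaR cells, was at 95.9 ± 1.45 CPM in exposed and 67.6 ± 3.74 CPM in control libraries (log2 fold change 0.50 ± 0.048, adjusted p = 7.32e-09). IGFBP5 (ENSDARG00000039264) was at 6.08 ± 0.799 and 3.30 ± 0.683 CPM. The calcium pump gene ATP2B1 was at 26.2 ± 2.06 CPM in exposed and 29.6 ± 2.79 CPM in control libraries (adjusted p = 0.126, edgeR); the exchanger gene SLC8A1 (ENSDARG00000043406) at 2.77 ± 0.219 and 1.76 ± 0.688 CPM (adjusted p = 0.103).

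Ammonia channel genes outside the RHCG group rose. RHBG was at 704 ± 28.0 CPM in exposed and 257 ± 11.8 CPM in control libraries (log2 fold change 1.45 ± 0.051, adjusted p = 3.66e-23). RHAG, best known from red cells and also counted in the erythroid list, was at 434 ± 10.9 and 331 ± 4.08 CPM (log2 fold change 0.39 ± 0.023). With RHCG, 4 of 5 ammonia channel genes rose and 1 fell, against 20.1% and 18.7% of all genes tested.

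Factors that act upstream in epidermis and ionocyte specification, beside the 3 regulators above, were called higher in 11 of 19 cases and lower in 2. Over all genes tested those shares were 20.1% and 18.7%. The other 6 factors were not called (median log2 fold change of the list 0.42). TP63, a master regulator of the epidermis, was at 132 ± 4.95 CPM in exposed and 81.7 ± 4.13 CPM in control libraries, TFAP2C at 108 ± 4.44 and 55.1 ± 0.378 CPM, and the epidermal differentiation gene GRHL1 at 61.9 ± 1.31 and 29.2 ± 1.91 CPM. GATA3 was at 93.9 ± 3.1 and 70.4 ± 1.51 CPM. Notch signaling limits the number of ionocyte precursors, and its ligand and receptor genes in the list did not share a direction: jag1a, jag1b, jag2b, dlc and NOTCH3 did not pass, NOTCH1 (ENSDARG00000052094) rose to 17.4 ± 2.46 against 13.7 ± 1.32 CPM, and NOTCH1 (ENSDARG00000103554) fell to 27.7 ± 1.50 against 35.6 ± 1.38 CPM. The Notch genes were named after their values were seen.

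**Figure D5:**
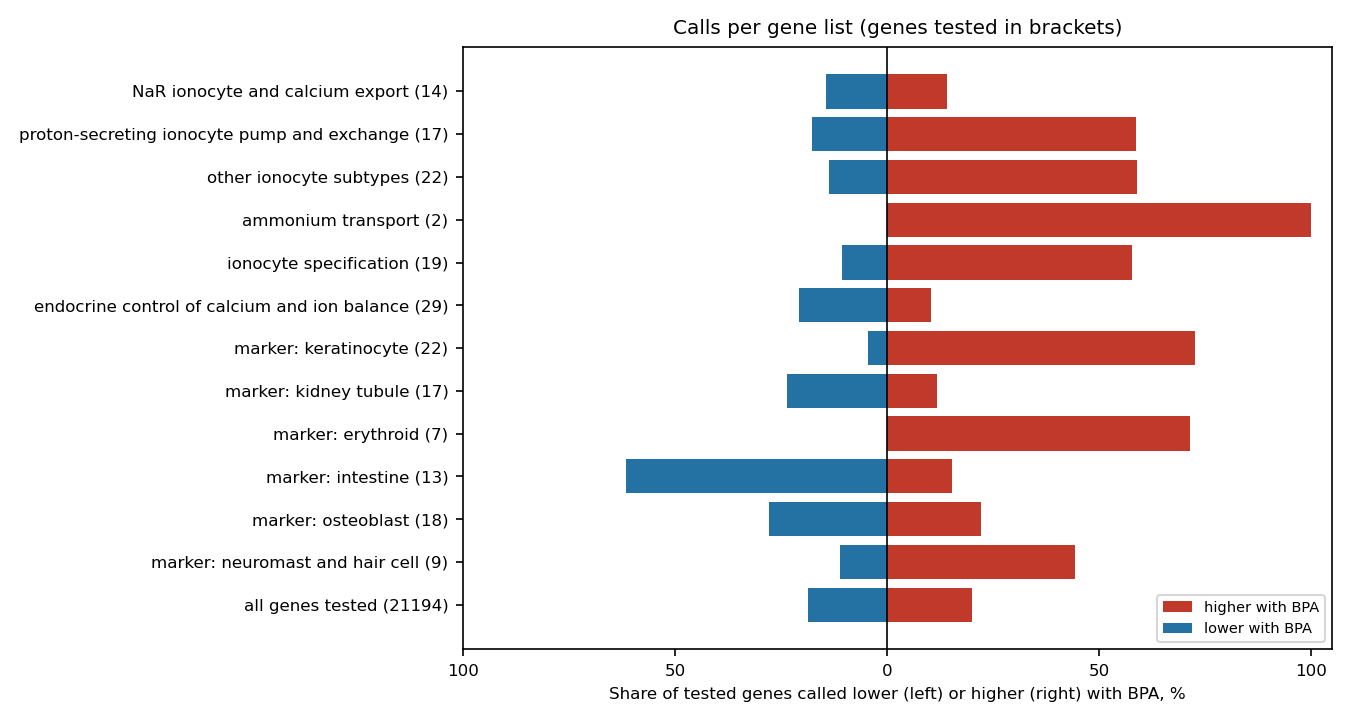
Share of the tested genes of each list, in percent, that were called higher (right) or lower (left) in BPA-exposed libraries, with the number tested in brackets and all 21194 genes tested in the bottom row (20.1% higher, 18.7% lower). HR cell, other ionocyte, ammonium transport, specification, keratinocyte, erythroid and neuromast lists lean to the right. NaR cell, endocrine, kidney tubule, intestine and osteoblast lists do not.

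Hormone and vitamin D genes that govern calcium and ion balance were mostly not called: 6 of 29 tested were lower, 3 higher and 20 not past. Over all genes tested 18.7% were lower and 20.1% higher, so the lower share of this list was near that of all genes. The median log2 fold change of the list was 0.20, so the median and the calls point in opposite directions. Without control library 2 the calls were 5 lower and 6 higher, so their balance rests on that library. CYP24A1, which inactivates vitamin D, was at 30.4 ± 0.785 CPM in exposed and 99.0 ± 4.77 CPM in control libraries (log2 fold change -1.71 ± 0.045, adjusted p = 5.81e-20). CYP2R1, which makes the circulating form of vitamin D, was at 3.86 ± 0.803 and 6.56 ± 1.43 CPM, and 1 of 3 genes named VDR, the vitamin D receptor (ENSDARG00000070721), at 4.24 ± 0.586 and 2.25 ± 0.555 CPM. Stanniocalcin restrains calcium uptake in fish; STC1 (ENSDARG00000058476) was at 1.43 ± 0.252 and 4.72 ± 1.06 CPM (log2 fold change -1.73 ± 0.24, adjusted p = 6.25e-06). The receptor gene PRLR for prolactin, the freshwater hormone of fish, was at 16.6 ± 0.913 and 7.496 ± 2.02 CPM (log2 fold change 1.14 ± 0.23, adjusted p = 3.26e-07). The calcium-sensing receptor gene CASR had 0 counts in each exposed library and 0, 8 and 0 counts in the control libraries, and was too low to test.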

How the data were processed

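The authors deposited raw read counts per Ensembl gene for 6 libraries, without any normalization. The build was GRCz11, and the tools listed were featureCounts 2.0.6, STAR 2.7.10a, FastQC and R 4.4.2, per the submitters' processing notes; options, strand setting and annotation release are not given in the sources used here. Between 76.1% and 81.7% of the nonzero counts per library were even, so counts may not be single fragments. Symbols covered 29201 of the 32520 genes. The deposited counts were tested with edgeR 4.0.16 (limma 3.58.1, R 4.3.3): filterByExpr by group (minimum count 10, minimum total 15), TMM scaling, and a robust quasi-likelihood F-test with Benjamini-Hochberg adjustment over all genes at 0.05. The code of the fit was run on simulated counts with known fold changes. These had far fewer changed genes than were called here and the same dispersion for every gene. That run checks the code and not the calls made here. CPM use TMM factors; log2 CPM for SEs use a prior count of 2. Values per library were compared by exact two-sided permutation.

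The genes and lists were chosen with earlier results of these data known. Named list genes are at most 5 called genes per list, by smallest adjusted p among those of at least 1 CPM, and fixed markers; relatives and neighbours of the 13 genes and other list genes were added after their values were seen. The ligand symbol dld was left unmatched, since DLD in the symbol table names an enzyme. List matches were 142 by symbol and 90 without a paralog letter. Replicate libraries differed by more than sampling noise (chi-square per degree of freedom between 2.35 and 4.67 on counts divided by 2). Alternatives were RLE and upper-quartile scaling, DESeq2 1.42.0, other filters, halved counts, a replicate block and each library left out. Floors cover counting error only. No sequences were analysed here, and a few list genes are counted but not reported by name here.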

Additional observations from a re-analysis of the deposited data

How the results depend on the processing

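The 13 ionocyte genes kept their side of the threshold under every alternative that tested them, and the called genes kept their direction. TRPV6, which was not called, changed sign when some single libraries were left out (0.03 without exposed library 1). The alternatives were 2 other scalings, DESeq2, 2 other filters, counts divided by 2, a replicate block and each of the 6 libraries left out. No alternative moved the median of all genes by more than 0.1 on the log2 scale. Without 1 library, the log2 fold change of foxi3a lay between 0.72 and 0.76, that of foxi3b between 1.08 and 1.45, that of TRPV6 between -0.04 and 0.03 (TRPV6 adjusted p between 0.648 and 0.885), and that of slc9a3.2 between 0.87 and 1.81 (adjusted p between 0.0585 and 0.518). slc9a3.2 gave no value under the filter of at least 1 CPM in 3 libraries or with counts divided by 2. Same-numbered exposed and control libraries did not deviate together (correlations of 0.0173, 0.0019 and -0.0162 over 17691 genes). These values show no pairing by number, but so few libraries cannot exclude it. With the replicate block 8164 genes were called, against 8213 without it. Among list genes that met the naming rule, leaving out 1 library lost the calls of CDH17 (4 different libraries), PAPSS1 (exposed library 3 or control library 2), CYP2R1 (control library 2), cahz (exposed library 1 or control library 2), OTOF (ENSDARG00000030832; exposed library 3) and MYO7A (ENSDARG00000099871; 5 different libraries), the last also under DESeq2, no filter and the replicate block. Depth limits slc9a3.2 most, with 6 to 66 reads a library.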

Other observations

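For the 3 ionocyte genes with the smallest adjusted p, the genes with the most similar pattern were looked up among 15278 others of at least 1 CPM, by the root mean square difference of log2 CPM centred on each gene's mean over the 6 libraries. Nearest to GCM2 were crybg1b (0.0302), crybg1a (0.0354) and ceacam1 (0.0364). ESRP2 (0.0151), actn3a (0.0174) and fam83ha (0.0248) were nearest to slc12a10.2, and ZFP36L1 (0.0247), CKMT2 (0.0269) and slc7a1a (0.0286) to RHCG (ENSDARG00000100265). None of these 9 is among the 13 ionocyte genes. With 6 libraries in 2 groups, likeness here mostly means a rise of the same size.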
